A study of Homo sapiens with 8 samples.

Results

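The comparison of sorafenib alone with a control treatment in SK-Hep1 cells rested on 4 of the 8 RNA sequencing libraries of the study. The 4 libraries were those given no dipyridamole, and each of the 2 cell types supplied 1 library with sorafenib and 1 with the control treatment. SK-Hep1 is an established human cell line from a liver tumour, and the study asked how dipyridamole, sorafenib or both act on these cells when they express SLC29A2. The sorafenib libraries came from control cells and from SLC29A2-expressing cells, and the control-treatment libraries came from the same pair of cell types. SLC29A2 encodes an equilibrative nucleoside transporter. The vector, the promoter that drove SLC29A2, whether the cells were 1 clone, and the dose and time of sorafenib are not stated in any source used here. Each condition had 1 library, so no p-value below measures the spread between replicate cultures of a condition. Those of the main fit rest on the spread between the responses of the 2 cell types and on variances shared across genes. Fits without cell type in the model also count the difference in level between the 2 cell types as error. The fit over all 8 libraries also draws on the libraries given dipyridamole. Nothing in the labels says whether the cultures were independent experiments. Pairs of values are written with control cells before SLC29A2-expressing cells.

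Sorafenib is a small molecule that inhibits several kinases, among them the RAF kinases, PDGF receptors and VEGF receptors, and it is used to treat liver cancer. RAF passes growth factor signals through MEK to ERK, which switches on immediate-early genes such as EGR1 and FOS and, as feedback, genes of its own inhibitors such as DUSP6 and SPRY4. ATF4 is a transcription factor that is translated when cells sense a lack of amino acids, protein folding stress or mitochondrial stress, and its targets make, import and charge amino acids.

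The 4 libraries held between 14.5 and 16.7 M reads, at which 1 read in a gene of 2 kb equals 0.0300 to 0.0345 FPKM, the number of fragments divided by gene length and library size. SLC29A2 itself stood at 7.11 and 3039.7 FPKM with sorafenib, against 7.81 and 1477 FPKM with control treatment, so the libraries matched their labelled cell types. The defining markers of hepatocytes were absent or near 0, with 9 of 14 at 0 FPKM in all 4 libraries and ALB at most 0.111 FPKM. Of 12 endothelial markers 3 were measured, ENG being the one of high level, while PECAM1, CDH5, VWF and KDR were at most 0.107, 0.188, 0.399 and 0.0228 FPKM. The summed level of the endothelial list was 124.9 and 132.1 FPKM with sorafenib, against 134.5 and 130.5 FPKM with control treatment. The summed hepatocyte list was 9.99 and 10.6 FPKM with sorafenib, against 6.57 and 9.44 FPKM with control treatment, nearly all of it from 2 genes. Leukocyte markers summed to 3.00 and 4.31 FPKM with sorafenib, against 2.29 and 1.77 FPKM with control treatment. Epithelial markers summed to 2256 and 2041 FPKM with sorafenib, against 2795 and 2390 FPKM with control treatment, most of it from keratins. The part of these markers in the results was not tested.

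Upstream sequences of some genes past the threshold are shown as letters, from 4 of the gene groups. They are RefSeq promoter windows of GRCh38.p14, read 5′ to 3′ on the gene's strand, from the 250 bases before the first listed start of each gene, and capitals mark a match to a motif searched on both strands. EGR1 is the immediate-early gene that fell most, and its window (chr5:138465229-138465478, plus strand) held 2 matches to the CArG box, the serum response element bound by SRF. The first bases of the 2 matches lay 105 and 83 bases before the start.
EGR1: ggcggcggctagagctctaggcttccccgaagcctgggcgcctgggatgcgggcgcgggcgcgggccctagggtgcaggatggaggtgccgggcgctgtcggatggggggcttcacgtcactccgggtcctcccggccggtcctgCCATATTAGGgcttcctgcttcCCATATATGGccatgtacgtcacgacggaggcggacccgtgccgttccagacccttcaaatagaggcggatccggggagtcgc
SERPINB2 and F3 were the 2 genes of plasminogen activation and coagulation with the largest falls among those with TGANTCA, the AP-1 site bound by FOS and JUN dimers. F3 had 2 matches and SERPINB2 had 1. The stretches are chr18:63887566-63887645 on the plus strand and chr1:94541930-94542009 on the minus strand.
SERPINB2: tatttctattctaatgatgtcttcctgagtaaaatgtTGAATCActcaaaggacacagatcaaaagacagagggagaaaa
F3: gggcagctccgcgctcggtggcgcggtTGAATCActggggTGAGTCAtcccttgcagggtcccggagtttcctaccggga
CHAC1, ASNS and AARS1 were the 3 genes of the ATF4 list with the largest rises among those with TGATGNAA, the composite site of ATF4 with a CEBP partner. The match read TTGCATCA in CHAC1 and AARS1, which is the motif on the opposite strand, and TGATGAAA in ASNS. The stretches are chr15:40953226-40953305 on the plus strand, chr7:97872433-97872512 on the minus strand and chr16:70289650-70289729 on the minus strand.
CHAC1: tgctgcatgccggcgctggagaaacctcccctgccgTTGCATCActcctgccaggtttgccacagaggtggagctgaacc
ASNS: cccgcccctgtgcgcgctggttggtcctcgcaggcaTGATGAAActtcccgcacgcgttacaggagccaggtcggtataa
AARS1: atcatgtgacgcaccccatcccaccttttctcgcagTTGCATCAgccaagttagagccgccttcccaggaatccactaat
CDC25A, E2F1 and MCM7 were the 3 DNA replication genes with the largest falls among those with TTTNGCGC, an E2F site, before the start. CDC6, which fell by slightly more than MCM7, had its match after the start, outside the bases printed here. The stretches, all on the minus strand, are chr3:48188418-48188497, chr20:33686386-33686465 and chr7:100101398-100101477.
CDC25A: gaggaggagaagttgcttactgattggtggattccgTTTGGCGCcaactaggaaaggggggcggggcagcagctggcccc
E2F1: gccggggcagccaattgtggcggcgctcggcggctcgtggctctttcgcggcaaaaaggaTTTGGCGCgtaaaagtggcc
MCM7: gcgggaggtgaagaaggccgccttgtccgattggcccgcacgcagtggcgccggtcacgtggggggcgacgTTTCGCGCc
These stretches were chosen after their matches were seen, and a match is a description of letters, not a site in use. The shares below count all measured members with a window, whether or not they passed the threshold. A list made of the targets of a factor can hold its motif often whatever sorafenib does. The shares therefore describe how the lists are made up and do not test the response. Windows from 250 bases before to 50 after the start held TGATGNAA for 7 of 30 measured ATF4 list members with a window (23.3%), against 3.67% of all 27305 promoters and 1.59% of the 9835 promoters of tested genes. TTTNGCGC was in 11 of 26 DNA replication windows (42.3%), against 1.83% of all promoters and 3.10% of those of tested genes. TGANTCA was in 5 of 11 windows of the plasminogen and coagulation list (45.5%), against 7.76% of all promoters and 4.33% of those of tested genes. The CArG box was in 2 of 10 immediate-early windows, those of EGR1 and SRF (20.0%), against 1.19% of all promoters. It was in a larger share of the windows of 2 other lists, 3 of 7 kinases bound by sorafenib (42.9%) and 2 of 6 matrix metalloproteinases and inhibitors (33.3%). TCACNCCAC, a form of the sterol regulatory element, was in 1 of 18 windows of the cholesterol list, that of SREBF2, against 1.15% of all promoters, and 4 other lists had larger shares. The windows of PHGDH and INSIG1, which led the ATF4 and cholesterol lists, held none of the 5 motifs, which says only that these letters are not in those windows. Matches of different motifs shared a base in 6 of the 27305 promoters and in 0 of the printed genes.

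Sorafenib changed the levels of many genes by small amounts and of a smaller set by 2-fold or more in both cell types. Of the 13554 genes that averaged 1 FPKM or more, 2483 rose (18.3%) and 1931 fell (14.2%) at an adjusted p under 0.05 in limma with cell type as a block, and 69.8% of these 4414 genes moved by less than 0.5 on the log2(FPKM + 1) scale. All log2 differences below are on that scale, sorafenib minus control treatment, as the mean of the 2 cell types ± SE, and a pseudocount of 1 understates the change of genes of low level. In both cell types at once, 78 genes were at least 2-fold higher (0.575%) and 51 at least 2-fold lower (0.376%), and all 129 passed the test. The median over all tested genes was 0.035 in control cells and 0.024 in SLC29A2-expressing cells.

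The count of genes depended on how the error was estimated. With cell type left out of the model 318 genes rose (2.35%) and 154 fell (1.14%). All 472 of those also passed, in the same direction, with the block. Of the genes at least 2-fold apart in both cell types, 62 of 78 and 40 of 51 passed without the block. List counts below are to be read beside the shares over all tested genes. These were 18.3% higher and 14.2% lower with the block, and 2.35% and 1.14% without it. Counts without the block are given below as a stricter value. The fit over all 8 libraries was stricter still, with 60 genes higher and 29 lower. For called genes named in the lists that did not pass without the block, the adjusted p-value there or the range of these is given. The counts show that other called members, not named, also did not pass without the block. Of 140 named genes past the threshold, 107 did not pass over all 8 libraries, and most of these are not marked below. Among them were IER3 (adjusted p = 0.16 in that limma fit), F3 (0.121), CXCL8 (0.106), NFKBIA (0.103), CCNE1 (0.139), DHCR7 (0.139) and NLRC5 (0.177). In that fit 2 DNA replication genes and 1 cholesterol gene fell. There 2 p53 targets and 1 immunoproteasome or MHC class I gene rose, and 0 inflammatory genes passed.

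**Figure D1:**
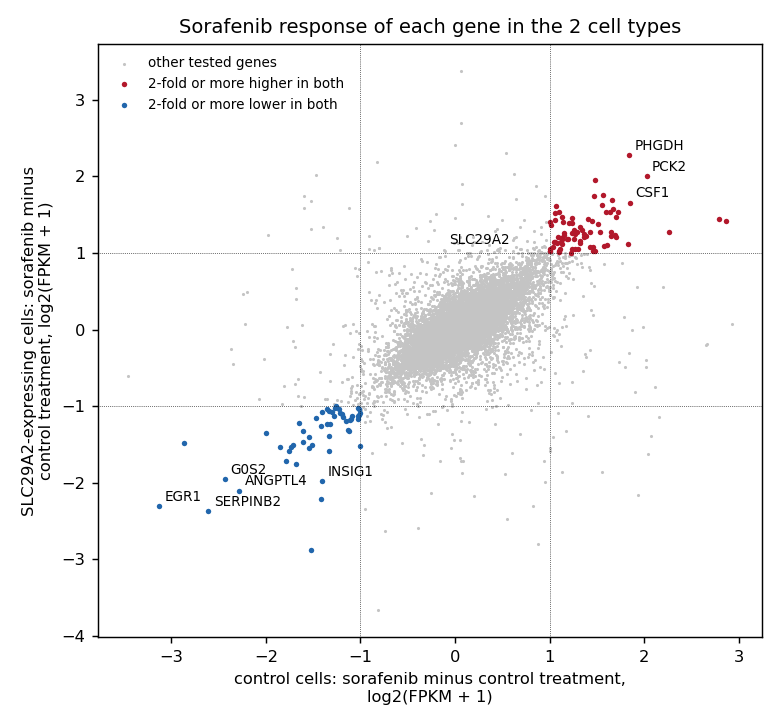
Each point is 1 of 13554 genes, with its log2(FPKM + 1) difference between sorafenib and control treatment in control cells on the horizontal axis and in SLC29A2-expressing cells on the vertical axis; dotted lines mark 2-fold. The 78 red genes and 51 blue genes are at least 2-fold apart in both cell types, EGR1 and SERPINB2 at the low end and PHGDH and PCK2 at the high end, and SLC29A2 lies off the diagonal.

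The 129 genes included 60 protein-coding genes that were higher and 36 that were lower. Of the rest, 8 of those higher and 3 of those lower were miRNA genes and another 9 were small nuclear or small nucleolar RNA genes, which poly(A) selection and a low read number measure poorly. Small RNA genes and genes with no symbol in the annotation were left out of the ranking of leading genes. Leading genes were the 12 with the largest rise and the 12 with the largest fall among those past the threshold, and 18 of these 24 kept their call under all alternatives tried for them. Where levels or treatments are said below not to overlap, this describes genes chosen mostly for large differences and is no further test. The share of all tested genes without overlap is not given here.

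PHGDH, the first enzyme of serine synthesis, rose most of the leading genes (ENSG00000092621, GRCh38 chromosome 1, 119648411 to 119744226, plus strand). It had 122 and 94.7 FPKM with sorafenib, against 33.3 and 18.8 FPKM with control treatment. Both sorafenib libraries lay well above both control-treatment libraries, and the log2 difference was 2.06 ± 0.09 (adjusted p = 1.13e-05).

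PCK2, the mitochondrial phosphoenolpyruvate carboxykinase (ENSG00000100889, GRCh38 chromosome 14, 24094053 to 24110598, plus strand), had 85.9 and 68.7 FPKM with sorafenib, against 20.4 and 16.4 FPKM with control treatment. Its log2 difference was 2.01 ± 0.06 (adjusted p = 2.64e-06), and the levels did not overlap. CSF1, a cytokine that sustains macrophages, had 30.8 and 29.4 FPKM with sorafenib, against 7.8 and 8.65 FPKM with control treatment, a log2 difference of 1.75 ± 0.09. CHAC1, which breaks down glutathione, had 32.1 and 25.9 FPKM with sorafenib, against 8.99 and 8.31 FPKM with control treatment (1.63 ± 0.09), and it did not pass in a fit over all 8 libraries (adjusted p = 0.0635).

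The other genes with the largest rises came from several classes. JDP2, a repressor of the AP-1 family, had 30.6 and 23.8 FPKM with sorafenib, against 9.67 and 6.38 FPKM with control treatment (1.66 ± 0.09). UBA7, which activates the ubiquitin-like protein ISG15, had 7.29 and 4.3 FPKM with sorafenib, against 1.54 and 0.907 FPKM with control treatment (1.59 ± 0.16). In both genes every sorafenib library lay above every control-treatment library. The secreted factors IL32 (1.62 ± 0.09), SEMA3B (1.58 ± 0.10) and CLU (1.57 ± 0.10) rose, as did ANKRD2 (1.61 ± 0.15), SEL1L3 (1.68 ± 0.14) and SOWAHD (1.77 ± 0.24). SOWAHD rested on 8.09 and 3.74 FPKM with sorafenib, against 0.888 and 0.963 FPKM with control treatment, and it lost its call with no filter on low values, without the variance trend and over all 8 libraries.

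EGR1, a zinc finger transcription factor (ENSG00000120738, GRCh38 chromosome 5, 138465490 to 138469315, plus strand), fell most. It had 0.511 and 2.24 FPKM with sorafenib, against 12.2 and 15.1 FPKM with control treatment, which stood for 25 and 102 recovered reads with sorafenib, against 641 and 728 with control treatment. Both sorafenib libraries lay far below both control-treatment libraries, and the log2 difference was -2.72 ± 0.19 (adjusted p = 5.46e-05). SERPINB2, an inhibitor of plasminogen activators (ENSG00000197632, GRCh38 chromosome 18, 63871692 to 63903890, plus strand), had 5.76 and 12.5 FPKM with sorafenib, against 40.2 and 68.9 FPKM with control treatment. Its levels did not overlap either, with a log2 difference of -2.49 ± 0.08 (adjusted p = 3.24e-06).

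Fat-handling and secreted proteins came next among genes with a symbol. An antisense transcript with no symbol, ENSG00000254964, fell by as much (-2.20 ± 0.29), at 1.39 and 0 FPKM with sorafenib, against 5.86 and 6.36 FPKM with control treatment. G0S2, an inhibitor of the lipase that empties lipid droplets, had 34 and 60.7 FPKM with sorafenib, against 189 and 238 FPKM with control treatment (-2.19 ± 0.10). ANGPTL4, a secreted inhibitor of lipoprotein lipase, had 15.5 and 17.3 FPKM with sorafenib, against 79.2 and 77.6 FPKM with control treatment (-2.19 ± 0.07). Both genes were lower in each sorafenib library than in each control-treatment library. INSIG1, which holds the sterol sensor complex in the endoplasmic reticulum, had 25.1 and 9.56 FPKM with sorafenib, against 68.4 and 40.7 FPKM with control treatment (-1.69 ± 0.12), and without the block its adjusted p was 0.0855. The other large falls were of the cytokine gene IL24 (-1.75 ± 0.07), the adaptor gene DOK3 (-1.67 ± 0.11), FOS (-1.67 ± 0.18), MIR210HG, the host transcript of a hypoxia-linked miRNA (-1.61 ± 0.13), PLAT (-1.55 ± 0.05), the secreted proteoglycan gene ESM1 (-1.54 ± 0.08) and RGS2, which switches off G protein signals (-1.51 ± 0.10). IL24 (adjusted p = 0.15) and DOK3 (adjusted p = 0.0777) did not pass over all 8 libraries, and FOS did not pass with no filter on low values (adjusted p = 0.0503).

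**Figure D2:**
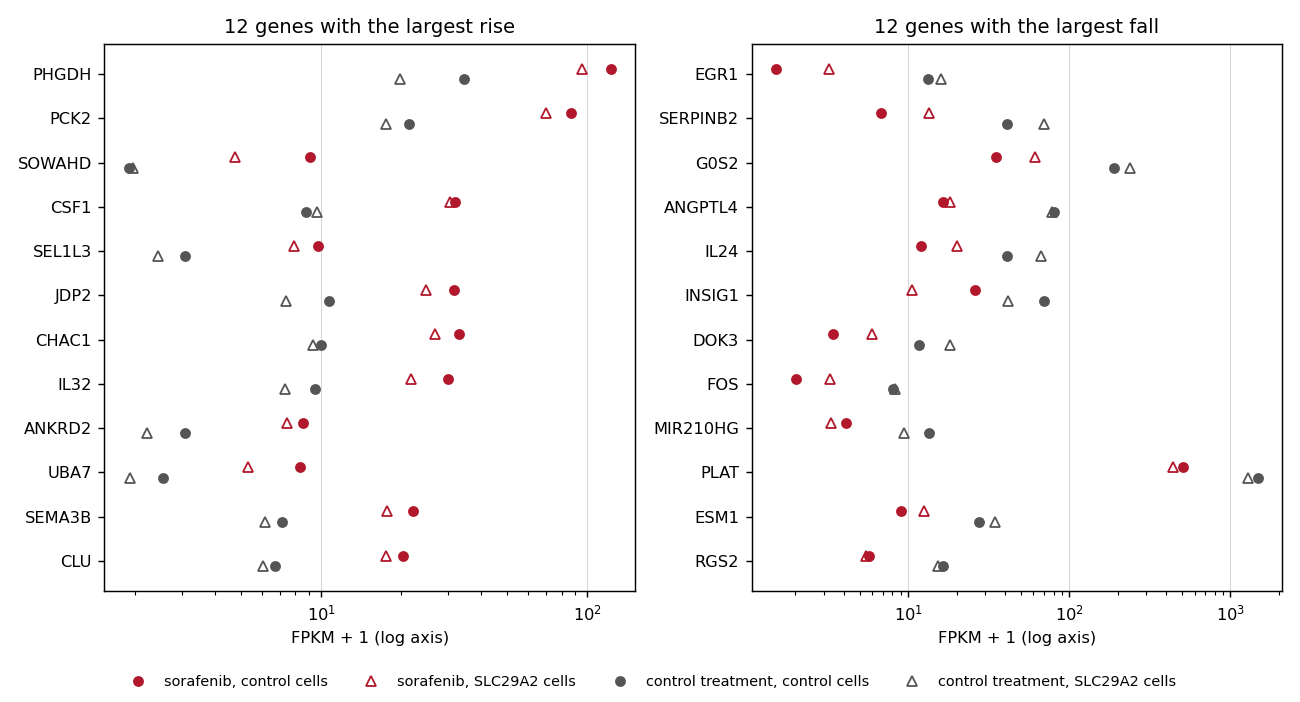
FPKM + 1 on a log axis for the 12 genes with the largest rise (left) and the 12 with the largest fall (right), with red for sorafenib, grey for control treatment, filled circles for control cells and open triangles for SLC29A2-expressing cells. In each of the 24 genes both sorafenib libraries lie on the same side of both control-treatment libraries, as for PHGDH with 122 and 94.7 FPKM against 33.3 and 18.8 FPKM. The genes were chosen for large differences of the same direction in both cell types, so this separation describes the choice and is no further test.

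The kinases that sorafenib is known to bind were examined first among the gene lists. Of 16 such genes 9 were measured, 4 rose and 0 fell, and the list median was 0.33, against 0.028 for all tested genes. Without the block 1 rose. BRAF had 8.14 and 7.73 FPKM with sorafenib, against 6.55 and 7.26 FPKM with control treatment (0.18 ± 0.11) and ARAF had 75.7 and 78.7 FPKM with sorafenib, against 75.5 and 82.5 FPKM with control treatment (-0.03 ± 0.05), and neither passed. FGFR1, a fibroblast growth factor receptor, rose (140.3 and 154 FPKM with sorafenib, against 86.9 and 101 FPKM with control treatment, log2 difference 0.65 ± 0.05). The collagen receptor kinase DDR1 (0.50 ± 0.05), the stem cell factor receptor KIT (0.39 ± 0.12) and the stress kinase MAPK14 (0.33 ± 0.06) also rose, and without the block their adjusted p-values were 0.0552, 0.259 and 0.124. PDGFRB (0.53 ± 0.22) and DDR2 (-0.18 ± 0.17) did not pass. FGFR1 overlaps LETM2 on the other strand, and strand is not stated, so reads of the overlap cannot be told apart. The VEGF receptor genes were nearly silent, with FLT1 at most 0.0903 FPKM, KDR at most 0.0228 FPKM and FLT4 at most 0.414 FPKM. FLT3 was at 0 FPKM in all 4 libraries, and PDGFRA, RET and CSF1R were at most 0.264, 0.0287 and 0.275 FPKM.

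The pathway from RAS to ERK moved little at the level of its own genes. Of 16 measured members 5 rose (31.25%) and 2 fell (12.5%), against 18.3% and 14.2% of all tested genes, with a median of 0.15. Without the block 1 rose and 0 fell. KSR1, a scaffold that brings RAF, MEK and ERK together, had 31.1 and 28.6 FPKM with sorafenib, against 20.1 and 18.1 FPKM with control treatment (0.62 ± 0.07), and its levels did not overlap. NF1 (0.29 ± 0.06) and RASA1 (0.32 ± 0.07), which switch RAS off, rose. ELK1, a transcription factor that ERK phosphorylates, fell (-0.41 ± 0.06). These last 3 did not pass without the block (adjusted p = 0.158 for RASA1, 0.179 for NF1 and 0.137 for ELK1).

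Genes that ERK signalling switches on were lower as a group. Of 14 measured immediate-early genes 9 fell and 2 rose, with a median of -0.32, and without the block 4 fell and 0 rose. Beside EGR1 and FOS, IER3, an immediate-early gene linked to cell survival, had 62.2 and 49.6 FPKM with sorafenib, against 117 and 106 FPKM with control treatment (-0.99 ± 0.06). FOSB fell (-0.66 ± 0.19), but without the block its adjusted p was 0.136. MYC fell by less (-0.32 ± 0.05). The members that rose were JUN (0.28 ± 0.06) and FOSL2 (0.34 ± 0.05), which encode partners within AP-1. Without the block MYC (adjusted p = 0.124), JUN (0.233) and FOSL2 (0.18) did not pass.

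Feedback inhibitors and ETS factors downstream of ERK also fell for the greater part. Of 17 measured 11 fell and 1 rose, with a median of -0.39, and without the block 4 fell and 1 rose. DUSP6, the phosphatase that removes phosphate from ERK, had 4.21 and 5.17 FPKM with sorafenib, against 11.6 and 11.5 FPKM with control treatment (-1.15 ± 0.12, adjusted p = 0.000265), with no overlap between treatments. DUSP1, a nuclear MAP kinase phosphatase, had 56.5 and 54.3 FPKM with sorafenib, against 93 and 87.8 FPKM with control treatment (-0.70 ± 0.05), and SPRY4, an inhibitor of receptor signalling, had 24.4 and 25.9 FPKM with sorafenib, against 37.9 and 42.7 FPKM with control treatment (-0.66 ± 0.07). The ETS factor gene ETV4 (-0.64 ± 0.08) and the cyclin gene CCND1 (-0.39 ± 0.07) also fell. The exception was DUSP8, a phosphatase of JNK and p38, which had 9.34 and 6.32 FPKM with sorafenib, against 2.18 and 2.18 FPKM with control treatment (1.45 ± 0.16) and kept its call under all alternatives tried. CCND1 did not pass without the block (adjusted p = 0.136). SPRED2, SPRED3, EPHA2, EPHA4 and ETV1 did not pass.

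Among genes of plasminogen activation and clotting, SERPINB2, PLAT and F3 were at least 2-fold lower in both cell types. The other measured members moved by less. Of 15 measured 7 fell and 4 rose, with a median of -0.33, and without the block 4 fell and 1 rose. PLAT, the tissue plasminogen activator, had 509.6 and 439.9 FPKM with sorafenib, against 1492 and 1288 FPKM with control treatment, and its log2 difference was -1.55 ± 0.05 (adjusted p = 2.64e-06). F3, the tissue factor that starts clotting, had 47.9 and 54.5 FPKM with sorafenib, against 129 and 132 FPKM with control treatment (-1.34 ± 0.06). PLAU, the urokinase activator, fell by less (-0.65 ± 0.05), as did the tissue factor inhibitor genes TFPI (-0.75 ± 0.07) and TFPI2 (-0.70 ± 0.18). PLAU (adjusted p = 0.0726) and TFPI2 (0.115) did not pass without the block. In the other direction THBD, the thrombin receptor of endothelium, had 8.23 and 8.82 FPKM with sorafenib, against 3.72 and 4.21 FPKM with control treatment (0.94 ± 0.12).

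Secreted vascular factors were split. Of 14 measured 5 rose and 4 fell, with a median of 0.01, and without the block 0 rose and 2 fell, ANGPTL4 and ESM1. ESM1 had 8.07 and 11.5 FPKM with sorafenib, against 26.7 and 33.8 FPKM with control treatment, so its treatments did not overlap. EREG, an EGF receptor ligand, fell (-0.76 ± 0.14), whereas HBEGF, another ligand of that receptor, rose (0.50 ± 0.06). VEGFA (0.31 ± 0.06) and VEGFC (0.37 ± 0.08) rose slightly. Without the block EREG (adjusted p = 0.0529), HBEGF (0.155), VEGFA (0.124) and VEGFC (0.114) did not pass.

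Among inflammatory genes 7 cytokine and chemokine genes fell. The 8 that rose were NFKBIA, NFKB2, RELB, TRAF1 and BIRC3, which act in NF-kB signalling, the adhesion gene ICAM1, the superoxide dismutase gene SOD2 and the cytokine gene LIF (0.26 ± 0.08). Of 19 measured 8 rose and 7 fell, with a median of -0.05, and without the block 5 rose and 2 fell. CXCL8, a neutrophil chemokine, had 4.42 and 6.41 FPKM with sorafenib, against 12.7 and 18.4 FPKM with control treatment (-1.36 ± 0.10), and IL24 had 11 and 19.2 FPKM with sorafenib, against 40.3 and 65.5 FPKM with control treatment. IL1B (-0.58 ± 0.14), IL11 (-0.51 ± 0.12) and IL6 (-0.45 ± 0.12) also fell. NFKBIA, which holds NF-kB in the cytoplasm, had 88.9 and 80.9 FPKM with sorafenib, against 39.7 and 45 FPKM with control treatment (0.99 ± 0.08). BIRC3, an inhibitor of cell death, had 26.2 and 37.9 FPKM with sorafenib, against 12.2 and 16.7 FPKM with control treatment (1.09 ± 0.07). RELB (0.73 ± 0.07), NFKB2 (0.73 ± 0.05), TRAF1 (0.90 ± 0.20) and ICAM1 (0.87 ± 0.08) rose too. Without the block IL1B, IL6, IL11, LIF, SOD2 and TRAF1 did not pass (adjusted p between 0.0814 for TRAF1 and 0.403 for IL6).

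The ATF4 and integrated stress response list had the highest median of the lists with at least 8 measured members, 0.59. Of 36 genes 34 were measured, 29 rose and 3 fell, and without the block 16 rose and 0 fell. Over all 8 libraries 5 rose. Enzymes that make amino acids or charge tRNA with them made up much of the list. ASNS, asparagine synthetase, had 10.1 and 8.53 FPKM with sorafenib, against 2.82 and 2.96 FPKM with control treatment (1.40 ± 0.13), and PSPH, the last enzyme of serine synthesis, rose (1.05 ± 0.09). AARS1, the alanyl-tRNA synthetase, had 513 and 440.3 FPKM with sorafenib, against 236 and 199 FPKM with control treatment (1.13 ± 0.05). The synthetase genes GARS1 (1.01 ± 0.05), SARS1 (0.86 ± 0.05), WARS1 (0.57 ± 0.06), EPRS1 (0.56 ± 0.05) and NARS1 (0.47 ± 0.05) rose as well, in the order of their log2 differences, and NARS1 did not pass without the block (adjusted p = 0.0526).

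Regulators in that list rose by different amounts. TRIB3, a pseudokinase that restrains ATF4 and AKT, had 95.1 and 72.8 FPKM with sorafenib, against 39 and 29 FPKM with control treatment (1.28 ± 0.06), and SESN2, which curbs mTORC1, had 44.6 and 34.4 FPKM with sorafenib, against 16 and 13.6 FPKM with control treatment (1.35 ± 0.07). DDIT3, the transcription factor CHOP, rose by 0.63 ± 0.15 and ATF3 by 0.36 ± 0.09, while ATF4 itself, which is controlled mainly by translation, rose by 0.32 ± 0.05. Within the list the amino acid transporter genes differed, since SLC7A11, the cystine importer, rose (1.02 ± 0.08) and SLC7A5 (-0.19 ± 0.05) and SLC38A2 (-0.20 ± 0.05) fell. The third that fell was ALDH18A1, an enzyme of proline synthesis (-0.30 ± 0.05). Without the block DDIT3, ATF3, ATF4, SLC7A5, SLC38A2 and ALDH18A1 did not pass (adjusted p between 0.104 for DDIT3 and 0.5 for SLC38A2). CTH and SLC7A1 did not pass with or without it. PSAT1 and NUPR1 were under the filter on low values, PSAT1 at most 0.144 FPKM and NUPR1 at 1.59 and 1.37 FPKM with sorafenib, against 0.135 and 0.206 FPKM with control treatment.

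**Figure D3:**
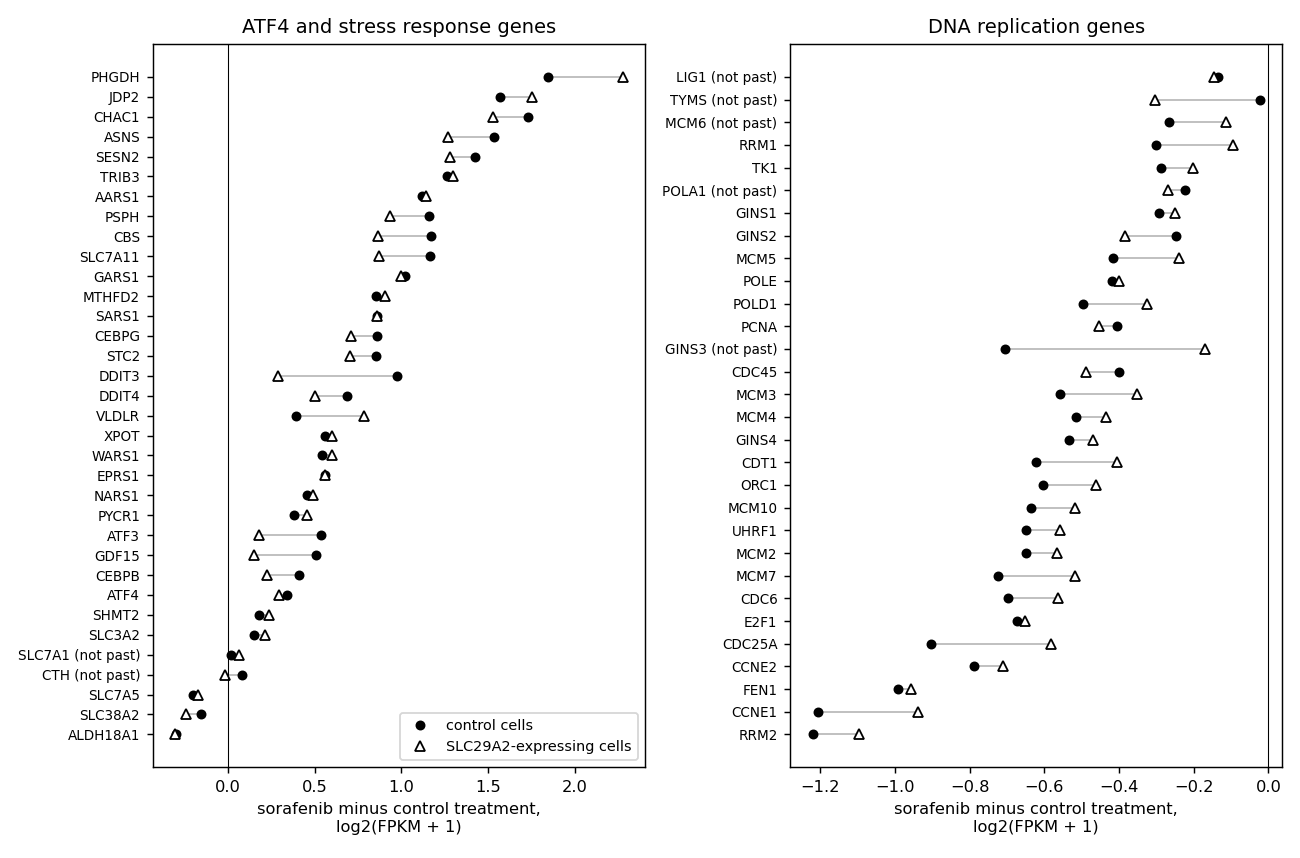
Log2(FPKM + 1) difference between sorafenib and control treatment for each measured gene of the ATF4 list (left) and the DNA replication list (right), filled circles for control cells and open triangles for SLC29A2-expressing cells, ordered by their mean. Of the left list 29 of 34 genes rose and 3 fell, and of the right list 25 of 31 fell and 0 rose, 1 gene of the right list not being drawn.

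The chaperone genes of the endoplasmic reticulum did not share that direction. Of 18 measured 10 fell and 2 rose, with a median of -0.22, and without the block 0 passed in either direction. SDF2L1 had 71.2 and 101 FPKM with sorafenib, against 141 and 152 FPKM with control treatment (-0.78 ± 0.08). MANF (-0.43 ± 0.07), CRELD2 (-0.41 ± 0.06) and HSPA5, the chaperone BiP (-0.30 ± 0.05), fell by less. XBP1, a transcription factor of the unfolded protein response, rose (0.43 ± 0.06). Of 12 measured heat shock genes 8 fell and 1 rose, with a median of -0.35, and without the block 0 passed. By cell type that median was -0.45 in control cells and -0.22 in SLC29A2-expressing cells. HSPA8 fell (-0.60 ± 0.09) and so did HSP90AA1 (-0.51 ± 0.05), whereas the small heat shock protein gene HSPB1 had 759 and 550.4 FPKM with sorafenib, against 435 and 311 FPKM with control treatment (0.81 ± 0.05). Without the block the adjusted p-values of the genes named in these 2 lists lay between 0.0618 for SDF2L1 and 0.253 for HSPA5.

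Genes of cholesterol synthesis and uptake were lower. Of 24 measured 17 fell and 0 rose, with a median of -0.43, and without the block 5 fell. DHCR7, an enzyme of the last step of synthesis, had 126 and 101 FPKM with sorafenib, against 209 and 176 FPKM with control treatment (-0.76 ± 0.05), and INSIG1 is described above. In both genes each sorafenib library lay below each control-treatment library. IDI1 (-0.75 ± 0.08), an isomerase of the pathway, and the sterol carrier gene STARD4 (-0.74 ± 0.06) also fell, IDI1 with an adjusted p of 0.0686 without the block, and SQLE, CYP51A1 and SREBF2 did not pass.

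Fatty acid synthesis followed with 10 of 18 measured genes that fell and 1 that rose, a median of -0.28, and 0 that passed without the block. FASN, the fatty acid synthase, had 738 and 512 FPKM with sorafenib, against 1690.3 and 1097 FPKM with control treatment (-1.15 ± 0.05, adjusted p = 9.56e-06; 0.0686 without the block). SCD, which makes monounsaturated fatty acids, had 66.8 and 21.6 FPKM with sorafenib, against 123 and 68.3 FPKM with control treatment (-1.25 ± 0.14, adjusted p = 0.205 without the block). The control-cell library with sorafenib, at 66.8 FPKM, nearly met the SLC29A2-expressing library with control treatment, at 68.3 FPKM. ACACB, the acetyl-CoA carboxylase found at mitochondria, was the member that rose (0.46 ± 0.08, adjusted p = 0.076 without the block). Of 10 lipid droplet genes 3 fell, G0S2, HILPDA (-0.48 ± 0.10) and DGAT1 (-0.33 ± 0.06), and 0 rose. Without the block 1 fell, G0S2, and the adjusted p was 0.092 for HILPDA and 0.107 for DGAT1.

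DNA replication genes fell together. Of 31 measured 25 fell and 0 rose, with a median of -0.45, and without the block 8 fell. RRM2, the ribonucleotide reductase subunit that limits deoxynucleotide supply, had 59.4 and 63.2 FPKM with sorafenib, against 139.7 and 136 FPKM with control treatment (-1.16 ± 0.06, adjusted p = 1.27e-05). CCNE1, the cyclin that starts S phase, had 6.59 and 9.63 FPKM with sorafenib, against 16.5 and 19.4 FPKM with control treatment (-1.07 ± 0.10). In both genes the treatments did not overlap. FEN1, a flap endonuclease, fell (-0.97 ± 0.06), but its span overlaps FADS2 and TMEM258. E2F1 (-0.66 ± 0.06), CDC25A (-0.74 ± 0.11), CDC6 (-0.63 ± 0.07) and the helicase subunit genes MCM7 (-0.62 ± 0.06) and MCM2 (-0.61 ± 0.05) fell by smaller amounts, CDC25A with an adjusted p of 0.0514 without the block. TYMS, LIG1, MCM6, POLA1 and GINS3 did not pass. In bulk RNA, fewer cells in S phase and less RNA per cell cannot be told apart.

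Mitotic genes fell by less. Of 25 measured 13 fell and 0 rose, with a median of -0.18, and without the block 1 fell, AURKA, a spindle kinase, at 80.4 and 85.4 FPKM with sorafenib, against 123 and 115 FPKM with control treatment (-0.52 ± 0.06). CDC20, an activator of the anaphase-promoting complex, had 225 and 223 FPKM with sorafenib, against 353 and 306 FPKM with control treatment (-0.55 ± 0.06), BIRC5 fell by 0.51 on the log2 scale and MKI67, a marker of cycling cells, by 0.36. Without the block the adjusted p was 0.0566 for CDC20, 0.083 for BIRC5 and 0.156 for MKI67. TOP2A, CCNA2 and CCNB2 did not pass. Of 38 cytosolic ribosomal protein genes 0 passed, and the list median was 0.005, between -0.17 ± 0.07 for RPL38 and 0.15 ± 0.05 for RPS19.

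Targets of p53 were higher. Of 26 measured 19 rose and 0 fell, with a median of 0.35, and without the block 6 rose. GADD45A, a growth arrest gene, had 774 and 780.5 FPKM with sorafenib, against 346 and 402 FPKM with control treatment (1.06 ± 0.06), and BBC3, the cell death activator PUMA, had 37.7 and 29.6 FPKM with sorafenib, against 14.5 and 13.1 FPKM with control treatment (1.22 ± 0.08). BTG2 rose (0.82 ± 0.09), and so did CDKN1A, the cell cycle inhibitor p21 (0.32 ± 0.06), while MDM2 (0.02 ± 0.05) and BAX (0.14 ± 0.05) did not pass. CDKN1A did not pass without the block (adjusted p = 0.305). SESN2 is counted in the ATF4 list as well, and GADD45A and BBC3 are also known targets of other stress pathways. Of 12 measured BCL2 family genes 4 rose (33.3%) and 1 fell (8.33%), against 18.3% and 14.2% of all tested genes. BBC3, BAD (0.45 ± 0.10), BCL2L1 (0.41 ± 0.06) and PMAIP1 (0.31 ± 0.09) rose and MCL1 fell (-0.24 ± 0.05), and without the block BBC3 alone of these passed, the others having adjusted p-values between 0.116 for BAD and 0.453 for PMAIP1.

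Antigen presentation and interferon-stimulated genes rose by moderate amounts. Of 16 measured genes of the immunoproteasome and MHC class I, 14 rose and 0 fell, with a median of 0.42, and without the block 5 rose. PSMB9, an immunoproteasome subunit, had 23.5 and 16.6 FPKM with sorafenib, against 7.96 and 5.58 FPKM with control treatment (1.44 ± 0.09), and it overlaps PSMB8 on the other strand. ERAP1, which trims peptides, had 38.3 and 36.9 FPKM with sorafenib, against 19.6 and 18.7 FPKM with control treatment (0.94 ± 0.07), with an overlap with CAST, and ERAP2 had 56.9 and 63.3 FPKM with sorafenib, against 31.1 and 33.8 FPKM with control treatment (0.87 ± 0.06). NLRC5, the transcriptional activator of MHC class I, rose (0.78 ± 0.10), as did B2M, the light chain of MHC class I (0.40 ± 0.05, adjusted p = 0.133 without the block). Of 28 interferon-stimulated genes 20 were measured, and the other 8 were under the filter on low values, at most 1.45 FPKM in any of the 4 libraries. Of the 20 measured 12 rose and 0 fell, with a median of 0.37, and without the block 3 rose. Over all 8 libraries 1 rose. IFIH1, a sensor of double-stranded RNA, had 11 and 13.1 FPKM with sorafenib, against 5.72 and 5.77 FPKM with control treatment (0.94 ± 0.11), whereas ISG15 (0.28 ± 0.12) and RSAD2 (0.04 ± 0.22) did not pass. STING1, the adaptor of DNA sensing, belongs to neither list and had 38.7 and 46 FPKM with sorafenib, against 16.2 and 16.9 FPKM with control treatment (1.30 ± 0.07); it is named from the genes at least 2-fold apart in both cell types, after its values were seen.

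Glycolysis and hypoxia genes were lower. Of 27 measured 19 fell and 3 rose, with a median of -0.36, and without the block 6 fell and 0 rose. By cell type the list median was -0.53 in control cells and -0.18 in SLC29A2-expressing cells. BNIP3, a mitophagy receptor induced by hypoxia, had 35.7 and 30.7 FPKM with sorafenib, against 71.2 and 56.1 FPKM with control treatment (-0.91 ± 0.06), and SLC16A3, the lactate exporter, had 284 and 293 FPKM with sorafenib, against 549 and 477 FPKM with control treatment (-0.82 ± 0.06). In both genes the treatments did not overlap. PFKFB4 fell (-0.97 ± 0.10), and so did PDK1, which restrains pyruvate oxidation (-0.81 ± 0.10), the glucose transporter gene SLC2A1 (-0.77 ± 0.05) and LDHA, lactate dehydrogenase (-0.74 ± 0.06). Without the block PFKFB4 did not pass (adjusted p = 0.0671). The members that rose were PFKM (0.16 ± 0.05), PFKP (0.17 ± 0.05) and NDRG1 (0.25 ± 0.08), with adjusted p-values of 0.366, 0.479 and 0.414 without the block.

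Of the 13 protein-coding genes of the mitochondrial genome 12 fell and 0 rose, with a median of -0.46, the lowest of the lists with at least 8 measured members, and without the block 0 passed, MT-ND2 having an adjusted p of 0.14 there, MT-CO2 of 0.155 and MT-ATP8 of 0.143. MT-ND2, a complex I subunit, had 1762 and 2219.9 FPKM with sorafenib, against 2740.4 and 3557 FPKM with control treatment (-0.66 ± 0.05), and MT-CO2, a cytochrome c oxidase subunit, had 3984 and 4262 FPKM with sorafenib, against 5869 and 6976 FPKM with control treatment (-0.63 ± 0.06). Mitochondrial genes took 3.04% and 3.34% of reads with sorafenib, against 3.71% and 4.54% with control treatment, so each sorafenib library lay below each control-treatment library. MT-ATP8 overlaps MT-ATP6, and its value (-0.82 ± 0.21) rested on at most 9.26 FPKM. The nuclear subunits of the respiratory chain did not share that shift. Of 33 measured 8 fell (24.2%) and 3 rose (9.09%), against 14.2% and 18.3% of all tested genes. Their median was -0.04, and the largest change was that of ATP5MC1 (-0.35 ± 0.05, adjusted p = 0.0976 without the block, where 0 passed).

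**Figure D4:**
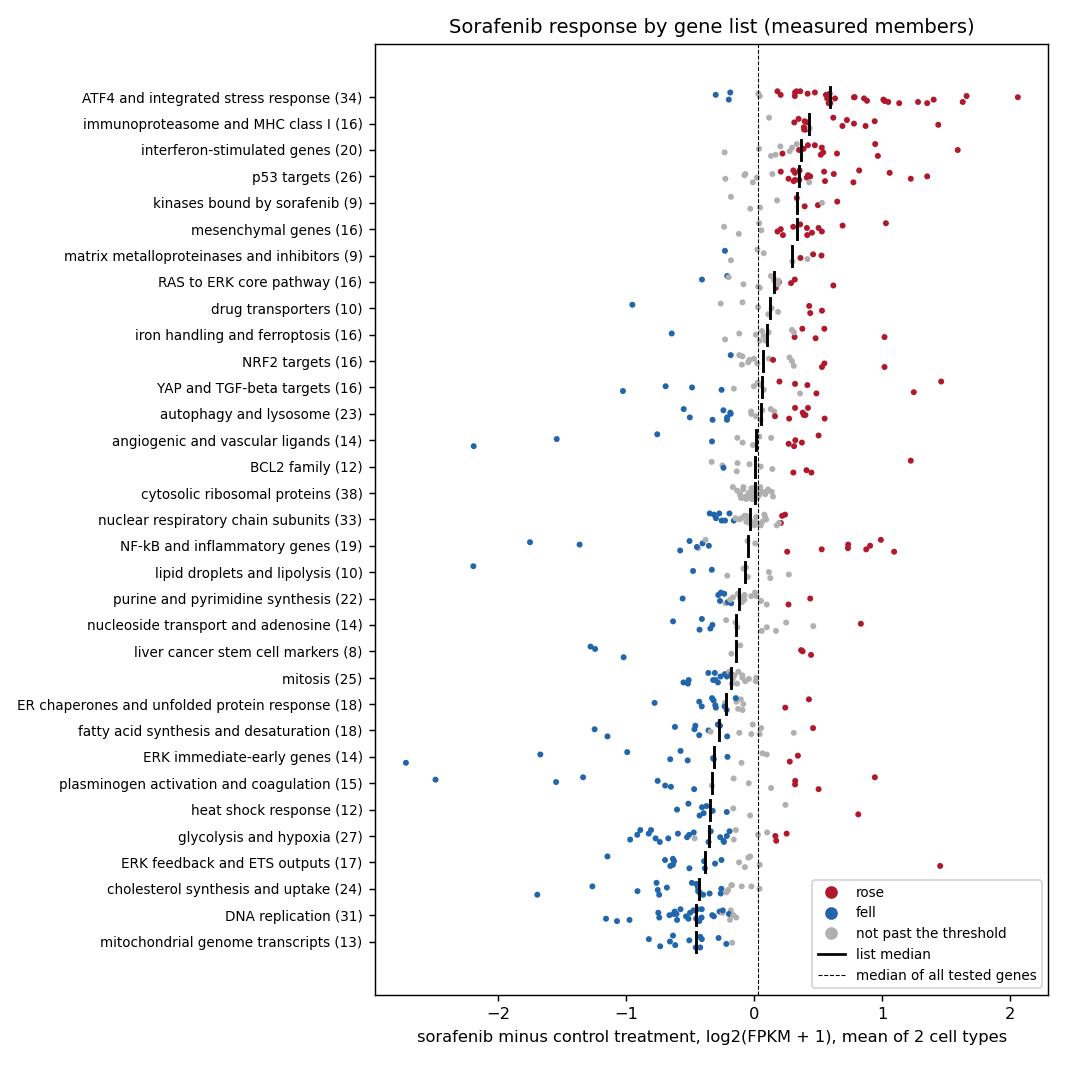
Each row is a gene list with its number of measured members, each point a member placed by its mean log2(FPKM + 1) difference between sorafenib and control treatment, red if it rose, blue if it fell and grey if it did not pass the threshold. Thick lines are list medians, from 0.59 for the ATF4 list to -0.46 for mitochondrial genome transcripts, and the dashed line is the median of all tested genes, 0.028.

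Other lists of metabolism and stress held genes of both directions. Of 16 measured NRF2 targets 4 rose (25%) and 1 fell (6.25%), against 18.3% and 14.2% of all tested genes. SLC7A11, shared with the ATF4 list, had 34.6 and 40.4 FPKM with sorafenib, against 14.9 and 21.6 FPKM with control treatment. The ferritin heavy chain gene FTH1 (0.55 ± 0.06, adjusted p = 0.0773 without the block) rose, while the glutamate-cysteine ligase genes GCLC (-0.10 ± 0.11) and GCLM (-0.09 ± 0.07) did not pass. Of 16 iron handling and ferroptosis genes 5 rose (31.25%) and 1 fell (6.25%). TFRC, the transferrin receptor, had 192 and 259 FPKM with sorafenib, against 305 and 399.9 FPKM with control treatment (-0.64 ± 0.05, adjusted p = 0.115 without the block), and GPX4, which repairs lipid peroxides, rose (0.48 ± 0.05, adjusted p = 0.175 without the block). Of 23 autophagy and lysosome genes 8 rose and 8 fell, and the endolysosomal genes NPC1 (-0.55 ± 0.06) and MCOLN1 (-0.50 ± 0.06) fell while TFEB (0.55 ± 0.12) and LAMP2 (0.42 ± 0.05) rose. Without the block, the counts of these 3 lists were 1 and 0, 1 and 0, and 0 and 1, higher and lower, and MCOLN1 (adjusted p = 0.0838), TFEB (0.134) and LAMP2 (0.117) did not pass.

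Nucleoside handling is the process that SLC29A2 serves. Of 14 measured genes of nucleoside transport and adenosine 1 rose and 5 fell, with 0 past without the block. CDA, cytidine deaminase, had 93.2 and 64.2 FPKM with sorafenib, against 51.4 and 35.9 FPKM with control treatment (0.83 ± 0.06, adjusted p = 0.0958 without the block). SLC29A1, the other main equilibrative transporter, had 62.3 and 91.5 FPKM with sorafenib, against 109 and 127 FPKM with control treatment (-0.63 ± 0.08, adjusted p = 0.115 without the block), and the adenosine receptor gene ADORA2B (-0.41 ± 0.09, adjusted p = 0.216 without the block) fell. Of 22 genes of purine and pyrimidine synthesis 2 rose and 7 fell, led by PPAT, the first step of purine synthesis (-0.56 ± 0.09), and 0 passed without the block (adjusted p = 0.0714 for PPAT). Of 10 drug transporter genes 3 rose (30%) and 1 fell (10%), against 18.3% and 14.2% of all tested genes. SLCO4A1, an organic anion transporter, had 26.3 and 48.9 FPKM with sorafenib, against 57.3 and 86.3 FPKM with control treatment (-0.95 ± 0.08), and ABCC2, an efflux pump, had 33.4 and 46.2 FPKM with sorafenib, against 25.3 and 28.6 FPKM with control treatment (0.53 ± 0.08), and 0 genes of the list passed without the block (adjusted p = 0.134 for SLCO4A1 and 0.128 for ABCC2).

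Among markers used for liver cancer stem cells 3 of 8 measured fell and 3 rose. SOX9, a transcription factor of progenitor cells, had 11 and 10.5 FPKM with sorafenib, against 29.1 and 26.1 FPKM with control treatment (-1.28 ± 0.08), and ANPEP, the surface peptidase CD13, had 802 and 728 FPKM with sorafenib, against 2123 and 1542 FPKM with control treatment (-1.24 ± 0.07). ALDH1A3 fell (-1.02 ± 0.11). These 3 were at least 2-fold lower in both cell types and passed without the block. KLF4 (0.44 ± 0.11), THY1 (0.38 ± 0.05) and CD47 (0.37 ± 0.07) rose but did not pass without it (adjusted p = 0.123, 0.0926 and 0.127), and CD44 and CD24 did not pass.

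Of 16 measured mesenchymal genes 12 rose and 0 fell, with a median of 0.33, and without the block 2 rose, COL5A1 and COL6A1. The collagen gene COL5A1 had 34 and 25.8 FPKM with sorafenib, against 16.4 and 12 FPKM with control treatment (1.03 ± 0.07), and the other collagen genes that rose lay between 0.41 and 0.53. Of 9 measured matrix metalloproteinase genes and inhibitors 3 rose (33.3%) and 1 fell (11.1%), against 18.3% and 14.2% of all tested genes. Without the block 1 rose, TIMP2. TIMP2, an inhibitor, had 154 and 151 FPKM with sorafenib, against 107 and 104 FPKM with control treatment (0.52 ± 0.05). Of 16 YAP and TGF-beta targets 6 rose and 4 fell, with a median of 0.06, and without the block 2 rose and 1 fell. TGFB2, a growth factor, had 17.7 and 9.9 FPKM with sorafenib, against 4.8 and 3.64 FPKM with control treatment (1.46 ± 0.13) and LTBP2, a matrix protein, had 33.6 and 23.1 FPKM with sorafenib, against 13.7 and 9.11 FPKM with control treatment (1.25 ± 0.08). CCN2, a matrix-bound regulator, had 64.3 and 74.5 FPKM with sorafenib, against 123 and 164 FPKM with control treatment (-1.03 ± 0.06), and THBS1, thrombospondin, fell (-0.69 ± 0.05, adjusted p = 0.0804 without the block). In TGFB2, LTBP2 and CCN2 the treatments did not overlap.

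Among markers of other cell types a few measured genes moved. SERPINA1, a protease inhibitor that hepatocytes secrete, had 5.64 and 4.47 FPKM with sorafenib, against 2.2 and 2.04 FPKM with control treatment (0.95 ± 0.15). The keratin gene KRT7 rose (0.80 ± 0.13) and KRT18 fell (-0.58 ± 0.05, adjusted p = 0.0707 without the block), and KRT18 overlaps KRT8. TIE1 (-0.19 ± 0.22), ENG (-0.11 ± 0.06) and CD14 (0.58 ± 0.24) did not pass.

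The response was compared with that of sorafenib given on top of dipyridamole, in the other 4 libraries. Of the 78 genes at least 2-fold higher in both cell types, 56 (71.8%) were higher in both cell types when both drugs were set against dipyridamole, against 50.8% of all genes. Of the 51 at least 2-fold lower, 41 (80.4%) were lower there in both cell types, against 23.5% of all genes. EGR1 had 0.937 and 3.38 FPKM with both drugs, against 31.9 and 38.4 FPKM with dipyridamole alone. SERPINB2 had 5.89 and 7.55 FPKM with both drugs, against 160.5 and 189.5 FPKM with dipyridamole alone, so the drop was present there too. PHGDH, by contrast, had 83.3 and 122.9 FPKM with both drugs, against 73.5 and 96.5 FPKM with dipyridamole alone, and all 4 of those values lay above both control-treatment libraries.

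A test of whether the response with dipyridamole differed from that without it, over all 8 libraries and 13899 genes, called 12 genes (0.0863%), 4 upward and 8 downward, each with an adjusted p of 0.0457 in limma. The interaction term had 1839 genes at an unadjusted p under 0.05. Its median over all genes tested was 0.105, so the terms as a whole lay above 0, and the split by direction is to be read beside that shift. PLXNA2, a semaphorin receptor, was higher with sorafenib in the absence of dipyridamole, by log2 differences of 1.34 and 1.29, and lower on top of dipyridamole, at -1.12 and -0.89. The glycine transporter gene SLC6A9 (1.10 and 1.53 without dipyridamole, -0.61 and -0.55 on top of it) and the calcium pump gene ATP2B4 (0.99 and 0.91, then -0.68 and -0.53) turned likewise. ADM, a vasodilator peptide gene, was lower in both settings, at -0.35 and -0.37 without dipyridamole and -2.48 and -2.63 on top of it. RGMB, its overlapping transcript RGMB-AS1, WNT5B and SNORD46 were also lower on top of dipyridamole, whereas ERFE, HSPA1B, ATP6V1FNB and MIR8078 were higher on top of it. HSPA1B is nearly identical to HSPA1A, so its reads are uncertain. For PHGDH the interaction term was -1.80 ± 0.44 (adjusted p = 0.222), for EGR1 -0.91 ± 0.39 (adjusted p = 0.377) and for SERPINB2 -2.03 ± 0.29 (adjusted p = 0.0884), and none of these 3 passed. With a pseudocount of 0.1 or with no filter on low values 0 genes passed.

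**Figure D5:**
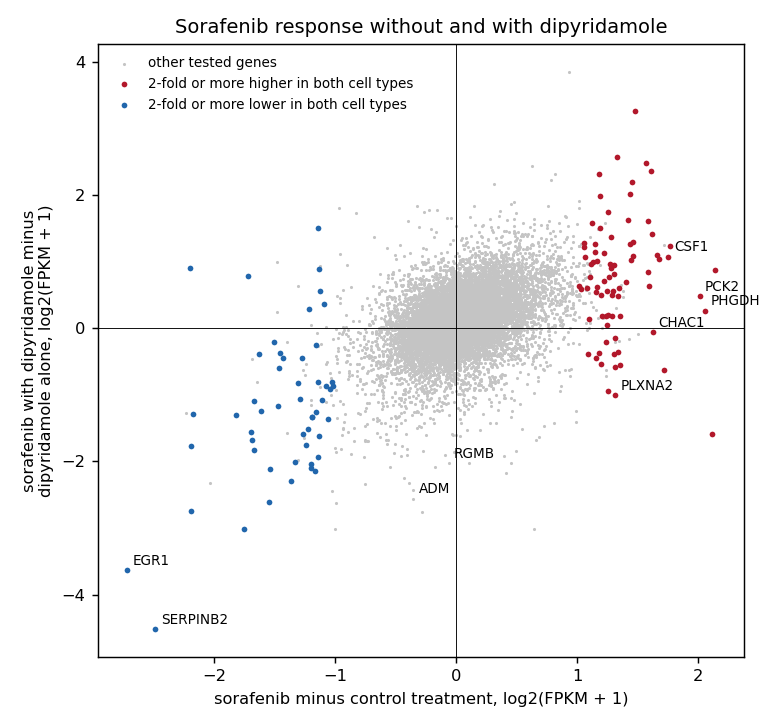
Each point is 1 of 13554 genes, with the mean log2(FPKM + 1) difference of sorafenib minus control treatment on the horizontal axis and that of both drugs minus dipyridamole alone on the vertical axis; the 4 libraries behind each axis are separate. Red genes (78) and blue genes (51) are those at least 2-fold apart in both cell types without dipyridamole, and EGR1 and SERPINB2 are low on both axes while PHGDH and CHAC1 are near 0 on the vertical axis.

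The last comparison asked where the 2 cell types differed in their response, which a single library per condition cannot test. SLC29A2 was at 3039.7 FPKM with sorafenib, against 1476.5 FPKM with control treatment, in SLC29A2-expressing cells, a log2 difference of 1.04, and in control cells the log2 difference was -0.12. GNG13, a G protein subunit gene, had 1.56 and 5.33 FPKM with sorafenib, against 7.98 and 9.51 FPKM with control treatment, lower with sorafenib in both cell types but more so in control cells, and it overlaps CHTF18. HMOX1, which degrades haem, had 23.8 and 39.9 FPKM with sorafenib, against 27.7 and 22.5 FPKM with control treatment, so it was lower in control cells and higher in SLC29A2-expressing cells. CIB2 (10.5 and 5.24 FPKM with sorafenib, against 6.53 and 7.01 FPKM with control treatment), ZFPL1 (9.89 and 6.63 FPKM with sorafenib, against 5.32 and 7.48 FPKM with control treatment) and PACRGL (11.3 and 7.94 FPKM with sorafenib, against 8.39 and 12.3 FPKM with control treatment) showed the opposite pattern. Across the 13554 genes the responses of the 2 cell types correlated at r = 0.607, a description over genes, which are not independent replicates.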

How the data were processed

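Poly(A) RNA of SK-Hep1 cells was sequenced in 8 libraries, per the labels' protocols. The authors deposited 1 table of FPKM per library, with 58302 genes and 8 further lines that hold no gene ID. GRCh38.p12 is the build, and HTSeq 0.6.1, TopHat2 2.0 and edgeR are the tools, listed in the submitters' processing notes with no role for each, and strandedness is not given in the sources used here. Symbols and positions came from GENCODE 29 on GRCh38, which matched 58039 IDs, and promoter windows came from RefSeq.

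Genes averaging 1 FPKM or more across the 4 libraries were tested as log2(FPKM + 1) with limma 3.58.1 in R 4.3.3. The model held cell type and sorafenib, variances were moderated with a mean-variance trend, tests were two-sided, and p-values were adjusted by Benjamini-Hochberg over all 13554 genes at a threshold of 0.05. This left 1 residual degree of freedom and a prior of 7.28. Same-numbered libraries are the same cell type, which is where the pairing comes from, and their deviations from the group means correlated at 0.394 across genes. The exact permutation test of 2 libraries against 2 cannot fall below a two-sided p of 0.333, so it was not used. The interaction with dipyridamole used all 8 libraries. FPKM multiplied by the rounded mean transcript length gave whole read numbers for 91.0% to 91.2% of values above 0, at a tolerance of 0.01 reads, and reads were recovered for 88.4% of expressed genes. The script was tested on simulated data.

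The comparison, its members, the gene lists and the motifs were chosen with earlier results of these data known. Leading genes were the 12 largest of each direction past the threshold with a mean of at least 2 FPKM in the higher group, the same direction in both cell types, a coding or lncRNA class and a gene symbol in the annotation. Up to 4 members of each list were selected by size, with all measured kinases and the genes of 5 FPKM or more that differed most between cell types, 5 of each sign. Some of the genes selected in this way, among them a kinase, are not named in the text. Other members named were picked from the lists after their values were seen. Alternatives were a pseudocount of 0.1, no filter, a mean of at least 5 FPKM, size factors, no block, no trend, all 8 libraries, each library left out, and voom on recovered reads. Some genes are counted in their lists but not reported here by name.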

Additional observations from a re-analysis of the deposited data

Results flagged for a closer look

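For 10 of the genes named here the sorafenib response had opposite directions in the 2 cell types, with 1 library per condition, and the difference was not tested. As the log2(FPKM + 1) response in SLC29A2-expressing cells minus that in control cells, the values were 1.16 for SLC29A2, 1.01 for HMOX1, 0.906 for LRRC49 and 0.663 for the endothelial receptor gene TIE1. They were -0.972 for CIB2, -0.956 for PACRGL, -0.936 for ZFPL1, -0.916 for AMN1 and -0.425 for the kinase gene DDR2. ARAF (-0.0731) had responses of opposite sign near 0. CIB2 overlaps IDH3A, LRRC49 overlaps LARP6 and THAP10, and SLC29A2 overlaps B4GAT1-DT on the other strand.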

How the results depend on the processing

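The number of genes past the threshold, 2483 higher and 1931 lower, depended on the error model more than on scaling. It was 651 and 438 with no filter on low values, 318 and 154 without the cell-type block, 480 and 224 without the variance trend, and 60 and 29 in a fit over all 8 libraries. With 1 library left out, and no block, 348 to 907 genes were higher and 160 to 573 lower. In such a fit the lone library of a treatment is assumed to vary like the other pair. A pseudocount of 0.1, a mean of at least 5 FPKM, size factors and voom stayed within 1.5 times. Size factors moved the share of calls that were higher to 49.0%, against 56.3%. The median difference over all genes, 0.028, was 0.011 with no filter, 0.013 at 5 FPKM and -0.00069 with size factors. Genes at least 2-fold apart in both cell types numbered 176 higher and 87 lower with a pseudocount of 0.1, which compresses low genes less. The interaction with dipyridamole called 12 genes, 0 with a pseudocount of 0.1, 0 with no filter and 25 with size factors. Of 140 named genes past the threshold 30 kept their call under all alternatives run for them, and 110 lost it under at least 1, of which the fit over all 8 libraries took 107 and the fit without the block 73. With 1 library left out, which leaves the 2 cell types unequally represented, directions turned for 6 genes that had not passed. The ranges were -0.315 to 0.569 for CIB2, -0.342 to 0.158 for PACRGL (0.136 in a further fit), -0.265 to 0.365 for AMN1 (-0.093 in a further fit), -3.82 to 4.74 for SLC29A2 (-3.23 in a further fit), -0.067 to 0.655 for HMOX1 and -0.094 to 0.032 for ARAF. The other causes of these changes were not tested. Genes of low FPKM rest on few reads, since 1 read in a gene of 2 kb is 0.0300 to 0.0345 FPKM, so small changes of such genes were not detectable at this depth.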
